A study of Mus musculus with 6 samples.

Results

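The clustered histone genes of the mouse were followed in RNA-seq libraries labelled as group 3 innate lymphoid cells (ILC3s), lymphocytes of mucosal tissue that release interleukin 22. Members were the rows of the deposited gene count table whose Ensembl identifier carries a symbol beginning with Hist1h, Hist2h, Hist3h or Hist4h, 70 of 55401 rows. They comprised 6 genes of the linker histone H1, 20 of H2A, 19 of H2B, 12 of H3 and 13 of H4. The Hist1 cluster on chromosome 13 held 56 of them, the Hist2 cluster on chromosome 3 held 10, the Hist3 cluster on chromosome 11 held 3, and Hist4 on chromosome 6 was a single gene. The reference annotation GENCODE M21 marks 3 of the 70 as pseudogenes, Hist1h2aj and Hist1h2al of H2A and Hist3h2bb-ps of H2B. The 3 Vehicle and 3 PEox libraries were labelled as wild-type mouse ILC3s of the lamina propria of the small intestine, exposed to vehicle or PEox before RNA was taken. PEox is not spelled out in the labels. It is a usual abbreviation for oxidised phosphatidylethanolamine. The sources used here do not give the dose, the exposure time, the mice's age or the number of animals behind a library. Spread between libraries may therefore be technical, and that spread is all the p-values measure. The protocol text of the same samples instead describes epithelial cells of pups sorted as EpCAM+CD45-.

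Histones package DNA. H2A, H2B, H3 and H4 form the nucleosome core, and H1 binds the DNA where it enters and leaves that core. The clustered genes supply histones during DNA synthesis in S phase. Their messenger RNAs usually lack a poly(A) tail and end just after a short stem-loop that is bound by the stem-loop binding protein (Slbp), although many of these genes can also give polyadenylated transcripts that run past the stem-loop. The sources used here do not say whether poly(A) selection was used.

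The stem-loop is shown first, because members are grouped by it further on. A stem-loop of 16 bases was found among the GENCODE M21 transcripts of 46 of the 70 members, in 8 forms. The forms are written 5′ to 3′ as DNA, with the 4 bases of the loop in capitals and the paired stem in lower case.

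Form in 26 members (3 H1, 10 H2A, 8 H2B and 5 H3 genes): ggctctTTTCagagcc
Form in 7 members, all of H4: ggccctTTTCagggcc
Form in 6 members (1 H1, 2 H2B and 3 H3 genes): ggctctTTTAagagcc
Other H4 form, in Hist1h4i and Hist2h4: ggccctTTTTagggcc
H4 form of a different stem, in Hist1h4b and Hist1h4j: ggtcctTTTCaggacc
Hist1h4a: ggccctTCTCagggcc
Hist1h3g: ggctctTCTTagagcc
Hist2h2ac: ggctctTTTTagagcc

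The forms differed in the loop and at inner pairs of the stem. Every H4 stem-loop found had a stem that no member of another class carried. Of the remaining 24 members, 9 were H2A and 9 H2B genes whose annotated model held no such stem-loop.

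Upstream sequence was taken from RefSeq for GRCm38.p6, whose table matched 62 of the 70 members. The genome build behind the counts is unknown. Many H2A and H2B genes lie head to head and share the stretch between their starts. The stretches of 3 such pairs are shown because the H2B partners went different ways, as the values below give, together with the 250 bases before the start of Hist1h1c, the H1 gene with the most counts. All are written 5′ to 3′, on the strand of the H2A gene for the pairs. Capitals mark matches on either strand to the CCAAT box (CCAAT), the TATA box (TATAAA) or the octamer (ATTTGCAT).

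Between Hist1h2bg and Hist1h2ae, chr13:23571221-23571399, minus strand: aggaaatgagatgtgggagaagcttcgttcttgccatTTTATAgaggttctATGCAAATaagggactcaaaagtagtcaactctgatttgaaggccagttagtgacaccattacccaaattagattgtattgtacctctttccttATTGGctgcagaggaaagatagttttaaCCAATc
Between Hist1h2bj and Hist1h2ag, chr13:22042950-22043197, minus strand: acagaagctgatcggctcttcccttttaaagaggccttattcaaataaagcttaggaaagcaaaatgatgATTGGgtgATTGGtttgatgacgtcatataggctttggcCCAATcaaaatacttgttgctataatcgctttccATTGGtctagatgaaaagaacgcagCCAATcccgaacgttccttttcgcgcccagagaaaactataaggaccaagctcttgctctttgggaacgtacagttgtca
Between Hist1h2bq and Hist1h2ao, chr13:21810200-21810366, plus strand: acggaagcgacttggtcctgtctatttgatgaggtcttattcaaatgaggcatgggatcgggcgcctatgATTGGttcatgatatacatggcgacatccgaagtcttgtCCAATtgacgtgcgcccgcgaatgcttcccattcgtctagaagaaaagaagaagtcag
Hist1h1c, chr13:23738557-23738806, plus strand: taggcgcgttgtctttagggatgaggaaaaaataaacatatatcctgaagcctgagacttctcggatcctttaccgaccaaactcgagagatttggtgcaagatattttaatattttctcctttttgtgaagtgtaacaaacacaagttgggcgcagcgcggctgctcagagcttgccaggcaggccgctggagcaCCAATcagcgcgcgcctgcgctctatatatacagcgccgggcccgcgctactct

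CCAAT was present in all 4 stretches, and the octamer in that of Hist1h2ae and Hist1h2bg. Over the 62 matched members, CCAAT lay in the 250 bases before the first start site of all 6 H1, all 18 H2A and all 16 H2B genes, in 8 of 10 H3 genes and in 3 of 12 H4 genes, against 34.5% of 27025 RefSeq windows of the same length. The octamer was present in 7 of 18 H2A and 6 of 16 H2B genes and in no matched H1, H3 or H4 gene, against 1.6% of all windows. TATAAA was present in 29 of the 62 members, against 3504 of the 27025 windows. The letters were searched on both strands, and a match is a description and not a binding site.

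The 6 libraries held 56252806 to 66849230 counts, and levels are given as CPM, counts scaled to library depth. A floor of 3 counts, applied where a gene was at 0, equalled 0.0472 to 0.0529 CPM and covers counting error only, since these reads carry no molecular identifiers. ILC3 marker genes (Il7r, Il23r and 7 others) lay between 11620 and 11850 CPM as a sum in the Vehicle libraries and between 6315 and 6368 in the PEox libraries, and epithelial markers (Epcam, keratins and others, 8 in all) to 97.9 to 111 and 58.3 to 67.2 CPM. ILC3 markers thus stood far above epithelial ones in every library. Of the ILC3 markers 3 of 9 passed the test as lower and 1 as higher (2 and 3 with library size as the scaling), and of the epithelial ones 3 of 6 tested as lower, against 18.8% of all genes tested called lower and 18.3% higher. The lower ILC3 sum came mostly from Il22 (6724 ± 63.5 to 2513 ± 59.4 CPM) and Id2 (3004 ± 159 to 1684 ± 50.1 CPM), while Il7r, Il23r, Il1r1, Ahr and Rora did not pass, Kit was higher and the median log2 fold change of the list was -0.11. Markers of other cells are given beside these. Summed levels went from 549 to 557 down to 183 to 186 CPM for 8 B and plasma cell markers (8 passed as lower), from 278 to 289 down to 139 to 158 for 7 T cell markers (5 lower and 1 higher, the latter lost without Vehicle library 1, Vehicle library 3, PEox library 1 or PEox library 2 and with no low count filter, with Cd8a at 0 in every PEox library), from 181 to 192 down to 60.8 to 68.2 for 7 ILC1 and NK markers (6 lower), from 153 to 161 down to 73.0 to 97.3 for 7 myeloid markers (2 lower, Lyz2 and Cd68, or 1 with library size scaling, with the length and GC correction, or without Vehicle library 1 or 3), and from 138 to 151 down to 16.2 to 22.2 for 7 mast cell and basophil markers (4 lower). The 7 erythroid markers went from 2754 to 2802 up to 5121 to 5808 CPM (5 higher). The part of these cells in the histone values was not tested, and in bulk RNA fewer cells of a type and less RNA per cell cannot be told apart.

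The balance between histone classes differed between the groups. The summed level of all 70 members was 424 ± 3.84 CPM in Vehicle and 291.9 ± 14 in PEox (SD over 3 libraries each, here and below), 1.45-fold lower. H2A had the largest difference in CPM, from 228 ± 4.57 to 67.4 ± 6.10 CPM, which is 3.39-fold lower. H3 went from 11.7 ± 1.66 to 3.59 ± 0.113 CPM, 3.25-fold lower, and H4 from 34.99 ± 1.51 to 16.2 ± 1.48 CPM, 2.16-fold lower. In all 3 of these classes the groups did not overlap. H2B stood at 56.7 ± 2.45 CPM in Vehicle and 54.4 ± 3.42 in PEox, with overlapping libraries. H1 went the other way, from 92.5 ± 1.75 to 150.4 ± 7.74 CPM, 1.63-fold higher. As a share of all clustered histone counts, H2A went from 53.8% to 23.1% and H1 from 21.8% to 51.5%. H2B made up 13.4% and 18.6%, H4 8.25% and 5.55%, and H3 2.75% and 1.23%. The plot of summed levels by class shows these values, and sums were given no test.

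**Figure D1:**
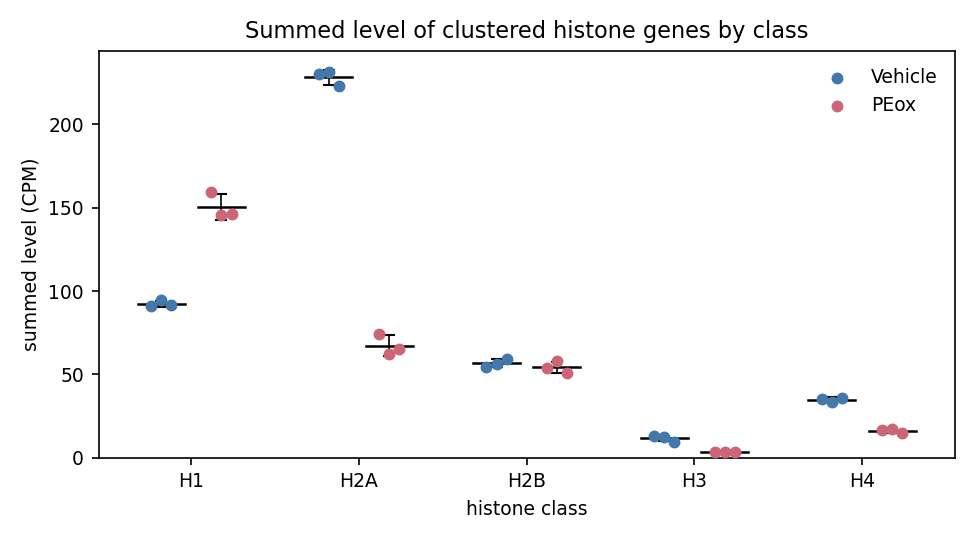
Summed level in CPM (y axis) of the clustered histone genes of each class (x axis), with each library as a point, the mean as a line and the SD as bars (3 Vehicle and 3 PEox libraries). H1 lies higher in PEox (150.4 against 92.5 CPM), H2A, H3 and H4 lie lower, and the H2B libraries overlap.

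Single members were tested with edgeR's quasi-likelihood test across all 18253 genes that passed the filter on low counts, and p-values were adjusted over all of them (Benjamini-Hochberg, threshold 0.05). Of the 70 members, 4 had no count in any library (Hist1h2aa, Hist2h2aa2, Hist2h2bb and Hist2h3b), 10 had counts but did not pass the filter, and 56 were tested. Of these, 26 were lower in PEox, 2 were higher (Hist1h1c and Hist1h2bg) and 28 did not pass. Among all genes tested 37.1% passed, 18.8% lower and 18.3% higher. At least 2-fold lower were 25 members, against 6.98% of all genes tested, and at least 2-fold higher was 1, Hist1h1c, against 3.75%. The CPM of the groups did not overlap for 35 members lower in PEox and 2 higher, against 26.5% and 24.1% of all genes (50.6% in either direction). The median log2 fold change was -1.33 over the tested members and 0.00 over all genes tested. The filter bears on these counts, since 18 tested members reached its level of 0.171 CPM in all Vehicle libraries but not in all PEox libraries, and 8 of them were called lower. Of the 36 that reached it in all 6 libraries, 18 were lower and 2 higher. The plot of changes by member shows that Hist1h1c and Hist1h2bg stand alone on the higher side among members that passed, with most of H2A together near a log2 fold change of -2.42, the median of that class.

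**Figure D2:**
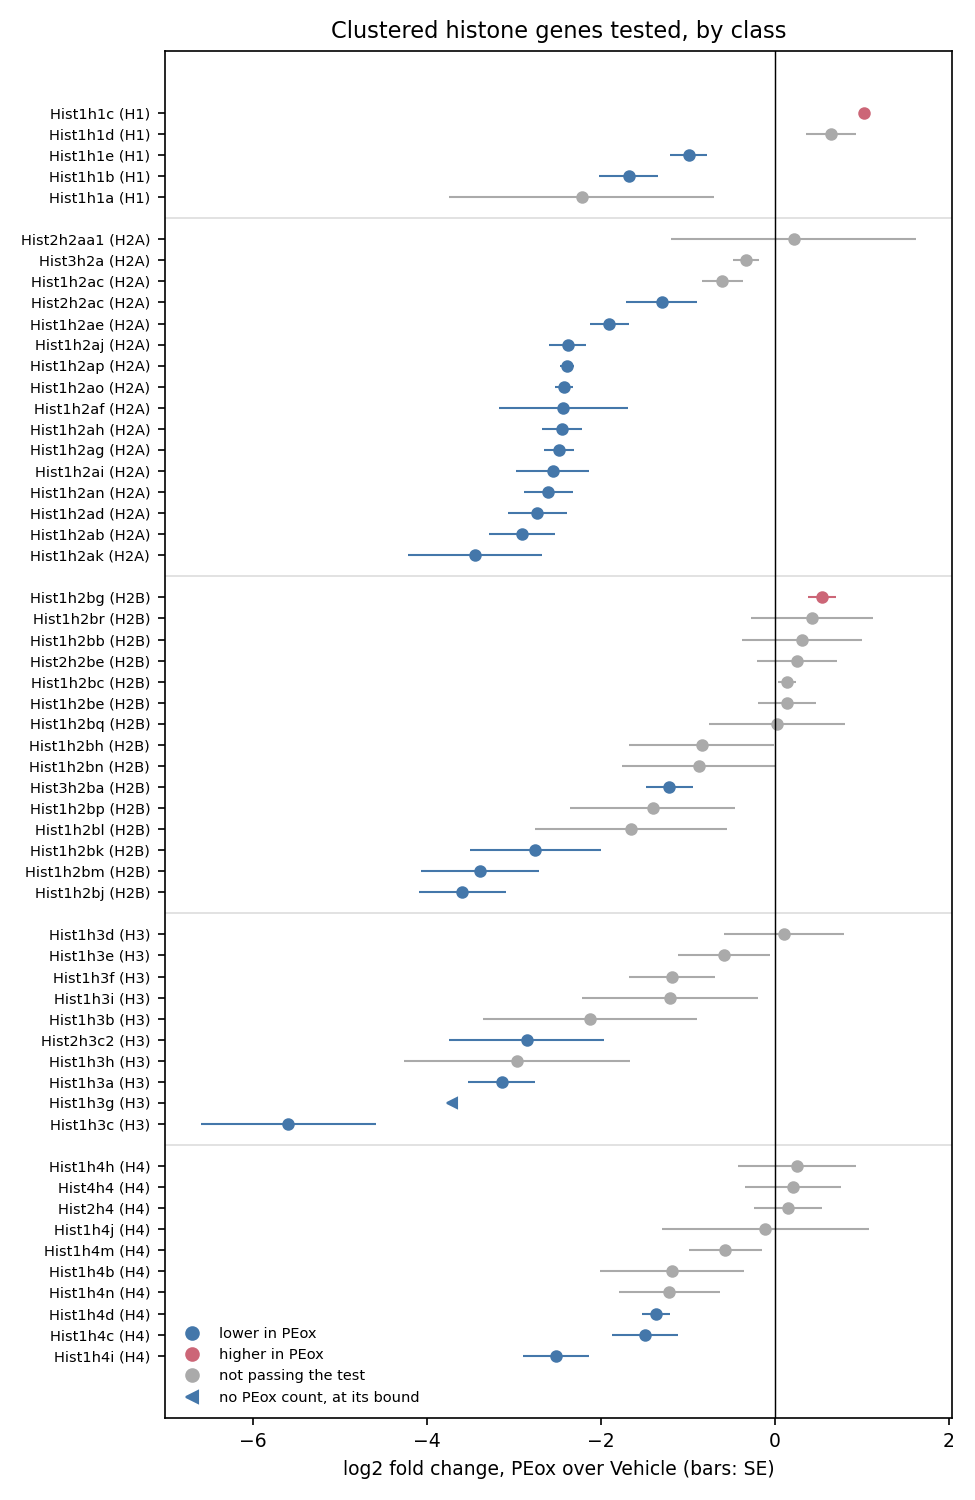
Log2 fold change of PEox over Vehicle (x axis, bars are the SE of the edgeR fit) for the 56 tested members (y axis), ordered within class, with colour for the outcome of the test and a triangle for Hist1h3g, which had no PEox count and is drawn at its bound. The 13 H2A genes called lower lie between -1.30 and -3.44, whereas the 15 H2B genes spread on both sides of 0.

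Of the 6 linker histone genes, Hist1h1c rose, Hist1h1e and Hist1h1b fell, Hist1h1d and Hist1h1a did not pass, and Hist1h1t, the testis form, was not tested. Hist1h1a, at 28, 11 and 16 counts in Vehicle and 11, 0 and 0 in PEox, passed as lower under 1 of the alternatives run, without PEox library 1 (edgeR adjusted p = 0.0322). Hist1h1c stood at 64.1, 68.7 and 66.3 CPM in Vehicle libraries 1 to 3 and at 140.8, 131.5 and 134.7 in PEox libraries 1 to 3. Libraries of a group were close, and the groups lay far apart (log2 fold change 1.03 ± 0.06 SE, edgeR adjusted p = 8.81e-06). Hist1h1c made up 71.8% of H1 counts in Vehicle and 90.2% in PEox, so that the H1 sum followed this gene. Without it, chosen by its outcome, the other 5 H1 genes went from 26.1 ± 0.949 to 14.8 ± 3.56 CPM (SD, n = 3), 1.76-fold lower. Hist1h1e, the next in level, stood at 18.2, 17.3 and 17.2 CPM in Vehicle and at 11.1, 9.07 and 6.28 in PEox. Its groups did not overlap and the PEox libraries were more spread (log2 fold change -0.99 ± 0.21 SE, edgeR adjusted p = 0.0062). The model of Hist1h1e overlaps that of Hist1h2be on the same strand, so reads of these genes may not be told apart. Hist1h1b went from 6.16, 5.17 and 5.77 CPM to 2.21, 2.15 and 0.975, again without overlap (log2 fold change -1.68 ± 0.34 SE, edgeR adjusted p = 0.0053). Hist1h1d read 2.39, 3.16 and 2.13 CPM in Vehicle and 5.05, 3.06 and 3.93 in PEox, with PEox library 2 inside the Vehicle range, and did not pass (edgeR adjusted p = 0.124). The H1 class thus held calls in both directions.

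H2A was the class with the most members lower, 13 of 16 tested, and none was higher. The shares over all genes tested were 18.8% lower and 18.3% higher. Of the 13 H2A genes that reached the filter's level in all 6 libraries, 11 were lower. The median log2 fold change over the 16 tested was -2.42. Hist1h2ap and Hist1h2ao led the class in level. Hist1h2ap stood at 72.0, 70.8 and 70.3 CPM in Vehicle and 13.6, 13.8 and 13.4 in PEox. Libraries within a group hardly differed, and the groups lay far apart (log2 fold change -2.39 ± 0.08 SE, edgeR adjusted p = 8.88e-07). Hist1h2ao stood at 60.0, 59.5 and 56.4 CPM in Vehicle and 11, 11.7 and 10.1 in PEox (log2 fold change -2.42 ± 0.10 SE, edgeR adjusted p = 1.74e-06). Both pictures are the same, but the genes are not independent measurements: 92.2% of the 100-base windows of Hist1h2ap also occur in Hist1h2ao, and the windows found in no other gene were 7.8% for Hist1h2ap and 7.3% for Hist1h2ao. Hist1h2ag went from 15.7, 14.1 and 13.5 CPM to 2.60, 2.72 and 2.41 (log2 fold change -2.48 ± 0.17 SE, edgeR adjusted p = 1.81e-05). It shares 68.1% of its windows with Hist1h2ao. Hist1h2ak, with 89.5% of its windows found in no other gene, was also lower, from 1.09, 0.476 and 1.05 CPM to 0.0680, 0.118 and 0.0496, at a low level. Leaving out Vehicle library 1 or Vehicle library 3 ended that call. The filter kept Hist1h2ak, and also Hist1h2af, through their Vehicle libraries, which favours a lower value, so their calls are no support. The other 9 H2A members called lower were Hist1h2ab, Hist1h2ad, Hist1h2ae, Hist1h2af, Hist1h2ah, Hist1h2ai, Hist1h2aj, Hist1h2an and Hist2h2ac. The call of Hist1h2af was lost when any of the 6 libraries was left out, and that of Hist2h2ac when any but PEox library 2 was. Hist1h2aj is a pseudogene in GENCODE M21 and shares 91.7% of its windows with Hist1h2ai, so its call is not an independent measurement.

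Hist3h2a, the H2A gene of the Hist3 cluster, did not pass the test. It stood at 29.3, 27.3 and 32.7 CPM in Vehicle and at 24.5, 18.8 and 27.6 in PEox, where PEox library 3 lay inside the Vehicle range (log2 fold change -0.33 ± 0.15 SE, edgeR adjusted p = 0.133). Its share of H2A counts went from 13.1% to 35.1%, and those of Hist1h2ap and Hist1h2ao from 31.1% to 20.3% and from 25.7% to 16.4%. The gene model shares 29.8% of its windows with Trim17, which it overlaps. Without Hist3h2a, again left out because of its outcome, the H2A sum went from 198 ± 7.25 to 43.7 ± 5.86 CPM (SD, n = 3), 4.54-fold lower. Hist1h2ac also did not pass (log2 fold change -0.60 ± 0.24 SE, edgeR adjusted p = 0.0868), though its libraries, at 5.98, 4.87 and 5.02 CPM in Vehicle and 3.62, 4.13 and 2.73 in PEox, did not overlap. Each of the 20 H2A genes is overlapped on the opposite strand by a predicted gene model, and whether counting used strand is unknown. For the 15 Hist1 genes these models held at most 20 counts in any library.

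Few H2B genes were called. Of 15 tested, 4 were lower (Hist1h2bj, Hist1h2bk, Hist1h2bm and Hist3h2ba), 1 was higher (Hist1h2bg) and 10 did not pass. Among all genes tested 18.8% were lower and 18.3% higher. The filter kept 8 of the 15 through their Vehicle libraries, among them Hist1h2bj, Hist1h2bk and Hist1h2bm. Of the 7 that reached its level in all 6 libraries, 1 was lower and 1 higher, near the shares of all genes. Most H2B counts came from Hist1h2bc, at 30.8, 32.9 and 32.6 CPM in Vehicle and 36.2, 37.8 and 32.1 in PEox. The groups overlapped and the difference did not pass (log2 fold change 0.14 ± 0.10 SE, edgeR adjusted p = 0.317), except when the trend of each library on gene length and GC content was removed (log2 fold change 0.50, edgeR adjusted p = 0.00487). Hist1h2bg read 6.12, 6.47 and 5.95 CPM in Vehicle and 8.57, 9.74 and 8.56 in PEox, without overlap (log2 fold change 0.54 ± 0.16 SE, edgeR adjusted p = 0.0332). This call was weak, since edgeR's adjusted p became 0.0933, 0.0756 or 0.106 without Vehicle library 1, 2 or 3 and 0.0826 without PEox library 2. Hist1h2bc and Hist1h2bg together with Hist1h2be encode the same protein, and the 3 genes together went from 40.6 ± 1.46 to 46.9 ± 4.29 CPM.

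The H2B genes called lower all stood below Hist1h2bc in level, and that of Hist1h2bk was lost without any of the Vehicle libraries or PEox library 1. Hist1h2bj stood at 3.67, 2.73 and 4.93 CPM in Vehicle and 0.153, 0.288 and 0.496 in PEox, with the groups far apart (log2 fold change -3.59 ± 0.50 SE, edgeR adjusted p = 0.000747). Hist1h2bm went from 1.56, 0.917 and 1.10 CPM to 0.0510, 0.135 and 0.149 (log2 fold change -3.39 ± 0.68 SE, edgeR adjusted p = 0.00502). Its sequence is nearly unique, with 93.4% of windows in no other gene. Hist3h2ba, the H2B gene of the Hist3 cluster, went from 4.91, 5.15 and 6.46 CPM to 1.75, 2.50 and 2.89 (log2 fold change -1.21 ± 0.27 SE, edgeR adjusted p = 0.00842), a call that was not made once the length and GC trend was removed. Outside Hist1h2bc and Hist1h2bg, the H2B sum was 18.5 ± 2.16 CPM in Vehicle and 10.01 ± 0.725 in PEox, 1.84-fold lower. The genes left out of that sum were chosen by their outcome, so its direction is a description.

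**Figure D3:**
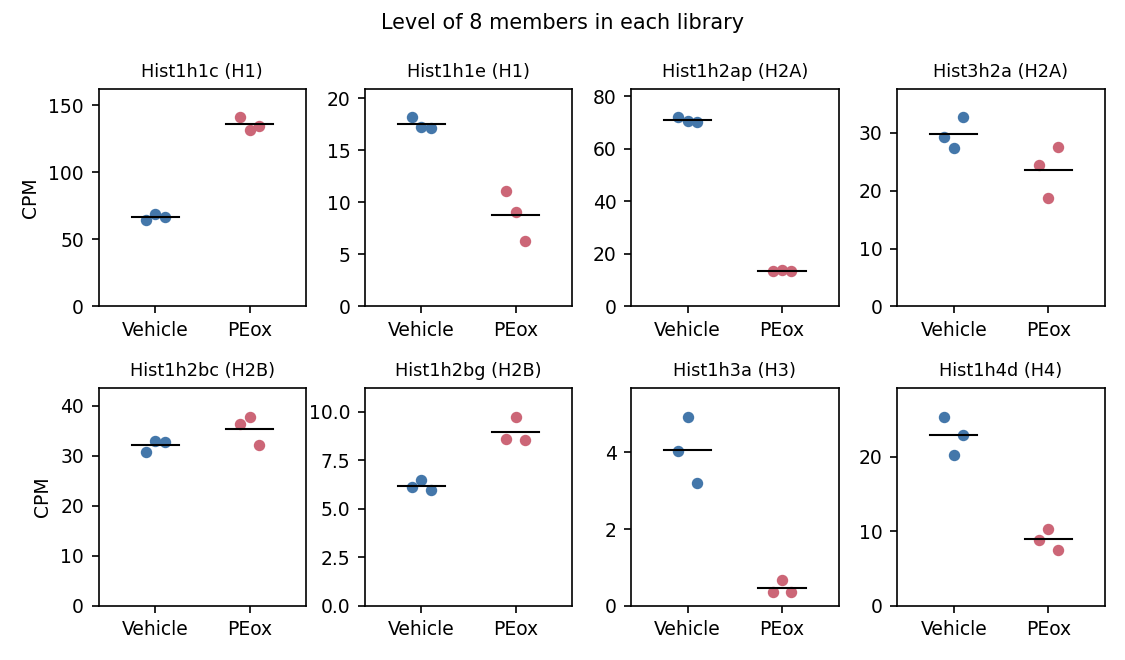
Level in CPM (y axis, from 0 and scaled for each gene) of 8 members in each of the 3 Vehicle and 3 PEox libraries (x axis), with each library as a point and the mean as a line. Hist1h1c and Hist1h2bg lie higher in PEox, Hist1h1e, Hist1h2ap, Hist1h3a and Hist1h4d lie lower, and the groups of Hist3h2a and Hist1h2bc overlap.

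All H3 levels were low, with a class sum of at most 822 counts in a library. Of 10 genes tested, 4 were lower (Hist1h3a, Hist1h3c, Hist1h3g and Hist2h3c2), none was higher and 6 did not pass. The shares over all genes tested were 18.8% lower and 18.3% higher. Hist1h3c, Hist1h3g and Hist2h3c2 were among 6 H3 genes kept by the filter through their Vehicle libraries, where they are high, so their count is no support. Of the 4 H3 genes that reached the filter's level in all 6 libraries, Hist1h3a alone was lower. The call of Hist2h3c2 was lost when any library but PEox library 1 was left out, and leaving out PEox library 1 made Hist1h3h pass and leaving out PEox library 3 made Hist1h3b pass. Hist1h3a went from 4.05, 4.94 and 3.21 CPM to 0.357, 0.660 and 0.364 (log2 fold change -3.14 ± 0.38 SE, edgeR adjusted p = 0.000378), and its share of H3 counts from 34.8% to 12.9%. Hist1h3g had 67, 29 and 26 counts in Vehicle and 0 in every PEox library. Against a floor of 3 counts in each PEox library it was at least 13.1-fold lower (edgeR adjusted p = 0.0044). Hist1h3c had 1.06, 0.882 and 0.779 CPM in Vehicle and 0, 2 and 1 counts in the PEox libraries, too few for a fold (edgeR adjusted p = 0.00295). Both genes were thus near or at 0 after PEox. Hist1h3d, Hist1h3e and Hist1h3f, among the most abundant H3 genes, did not pass (edgeR adjusted p = 0.923, 0.46 and 0.109). Hist1h3d was at 0.850, 0.617 and 0.795 CPM in Vehicle and 1.09, 0.203 and 1.16 in PEox, so that PEox libraries lay on both sides of Vehicle. Sorted by translated GENCODE coding sequence, Hist1h3a, Hist1h3g, Hist1h3h and Hist1h3i encode 1 protein, and their sum went from 5.84 ± 0.869 to 0.790 ± 0.244 CPM, 7.40-fold lower. Hist1h3b, Hist1h3c, Hist1h3d, Hist1h3e, Hist1h3f, Hist2h3b and Hist2h3c2 encode another protein, and their sum went from 5.79 ± 0.897 to 2.76 ± 0.351 CPM, 2.10-fold lower. The difference between these changes was not tested.

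All 13 H4 genes encode the same protein by the same sorting, and their sum is the class sum given above. Of 10 tested, Hist1h4d, Hist1h4i and Hist1h4c were lower, none was higher and 7 did not pass, against 18.8% of all genes tested called lower and 18.3% higher. Hist1h4d carried most of the class, 65.2% of its counts in Vehicle and 54.7% in PEox, and no 100-base window of it occurs in another gene. It stood at 25.4, 20.2 and 22.9 CPM in Vehicle and 8.82, 10.4 and 7.53 in PEox, without overlap (log2 fold change -1.36 ± 0.16 SE, edgeR adjusted p = 0.000327). Hist1h4i went from 3.05, 3.65 and 3.55 CPM to 0.357, 0.778 and 0.661 (log2 fold change -2.51 ± 0.38 SE, edgeR adjusted p = 0.00118). Hist1h4c went from 1.56, 1.85 and 1.88 CPM to 0.527, 0.694 and 0.661 (log2 fold change -1.49 ± 0.38 SE, edgeR adjusted p = 0.0162), a call lost without Vehicle library 2 or 3. Hist2h4, by contrast, read 1.54, 2.38 and 2.69 CPM in Vehicle and 3.67, 1.69 and 1.98 in PEox, with overlap (edgeR adjusted p = 0.809). Hist1h4i and Hist2h4 carry the same stem-loop.

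Levels between genes were compared per length, as CPM per kilobase of all GENCODE exons of a gene, with overlapping bases counted once. In Vehicle, Hist1h2ap (147 CPM per kilobase) and Hist1h2ao (122) were highest, followed by Hist1h1c (42.5), Hist1h2ag (29.7), Hist1h2ah (27.96) and Hist1h2bc (27.77). In PEox the order was Hist1h1c (87.0), Hist1h2bc (30.6), Hist1h2ap (28.2), Hist1h2ao (22.8) and Hist1h2bg (14.5). The leading place passed from an H2A gene to an H1 gene. These levels assume that the annotated length is the length transcribed.

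Members also differed in where their annotated model ends, a grouping made after the values were seen and given without a test. In 23 members the GENCODE M21 model ends 3 to 74 bases after the stem-loop, and in 23 others it runs on for 108 to 4884 bases. Of the 20 tested members whose model ends at the stem-loop, 12 were lower and none higher, with a median log2 fold change of -2.40. Of the 20 tested members with an extended model, 7 were lower and both members called higher were among them, with a median of -0.59. Of all genes tested, 18.8% were lower and 18.3% higher, so higher calls were not more frequent among extended models than among all genes. Of 16 tested members without a stem-loop in the model, 7 were lower and none higher, with a median of -1.95. This group is mixed. Hist1h2bc, Hist2h2be, Hist1h2bq and Hist1h2br, with models of 1156 to 2620 bases, stood at 0.14, 0.26, 0.03 and 0.43. Its other models were 352 to 743 bases long, and their log2 fold changes were all negative. Some stop with the coding sequence, such as Hist1h2an (393 bases, 130 residues), so lacking a stem-loop can be a trait of the annotation. Class and model end are linked, since all H1 models with a stem-loop were extended while 8 of the 11 H2A models with one ended at it. Within H2A, the 7 tested genes ending at the stem-loop had a median of -2.42 (6 lower) and the 3 extended ones, Hist1h2ac, Hist1h2ae and Hist3h2a, one of -0.60 (1 lower). Within H2B the medians were -2.75 over 5 genes (3 lower) and -0.35 over 4 (1 lower and 1 higher), but 4 of those 5 genes, all 3 lower ones included, were kept by the filter through their Vehicle libraries, which favours a lower value. Over all classes the filter kept 8 of the 20 members ending at the stem-loop, 2 of the 20 extended ones and 8 of the 16 without a stem-loop in that way. Of the members that reached its level in all 6 libraries, 7 of 11, 6 of 17 and 5 of 8 were lower in that order. H4 ran differently: none of 4 genes ending at the stem-loop was called, with a median of -0.87, and 3 of the 6 extended ones were lower, with a median of -0.73. The part of level and length in this pattern was not tested.

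**Figure D4:**
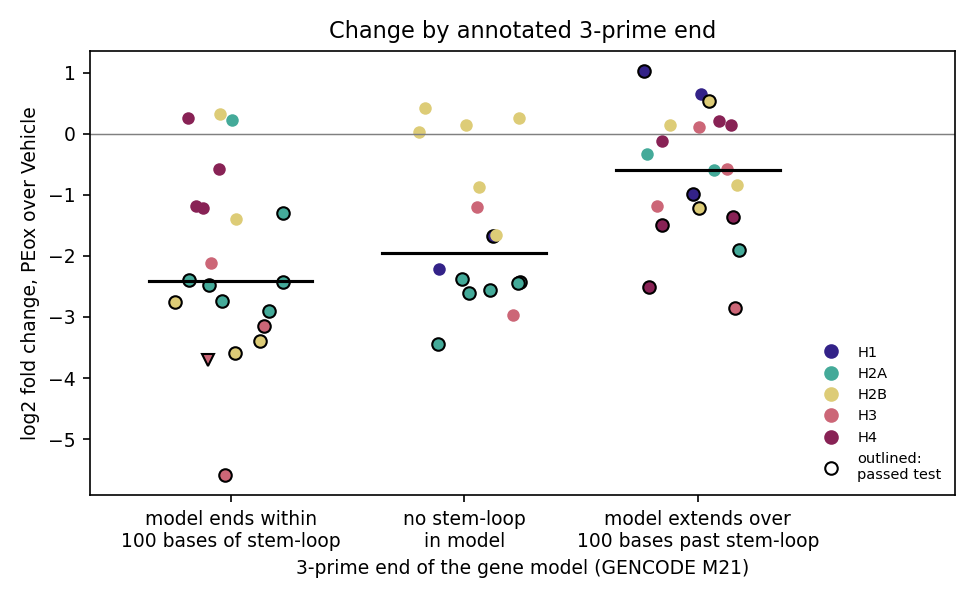
Log2 fold change of PEox over Vehicle (y axis) for the 56 tested members by the 3′ end of their GENCODE model (x axis), coloured by class, with outlined points for members that passed the test, a triangle for Hist1h3g at its bound and the median of each group as a line. The medians are -2.40, -1.95 and -0.59 for models that end at the stem-loop, hold none or extend past it. Both members called higher are among the 20 tested with an extended model, against 18.3% of all genes tested called higher.

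The head-to-head pairs put H2A and H2B side by side over a shared upstream stretch. With starts less than 500 bases apart there were 10 such pairs, 164 to 281 bases apart. The H2A gene was lower in 9 of them, against 18.8% of all genes tested. In 8 pairs both genes were tested. Both fell in the pairs Hist1h2ag with Hist1h2bj (log2 fold changes -2.48 and -3.59) and Hist1h2ah with Hist1h2bk (-2.45 and -2.75). In the pair Hist1h2ae with Hist1h2bg the H2A gene fell, from 7.07, 6.28 and 7.06 CPM to 1.96, 1.54 and 1.97 (log2 fold change -1.90 ± 0.22 SE, edgeR adjusted p = 0.000305), while the H2B gene rose by the values above. In the other 5 pairs the H2A gene fell and the H2B gene did not pass. Hist1h2ai with Hist1h2bl gave -2.55 and -1.65, Hist1h2an with Hist1h2bp -2.60 and -1.40, and Hist1h2ak with Hist1h2bn -3.44 and -0.87. Hist1h2ap with Hist1h2br gave -2.39 and 0.43, and Hist1h2ao with Hist1h2bq -2.42 and 0.03. The filter kept Hist1h2ak and the H2B genes Hist1h2bj, Hist1h2bk, Hist1h2bl, Hist1h2bp, Hist1h2bn and Hist1h2bq through their Vehicle libraries, which favours a lower value. The calls of Hist1h2bj and Hist1h2bk, on which the pairs with both genes lower rest, are therefore no support. Hist1h2bq and Hist1h2br had under 1.3 CPM in every library and share over 80% of their windows, so their values are imprecise. The difference between partners was not tested.

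**Figure D5:**
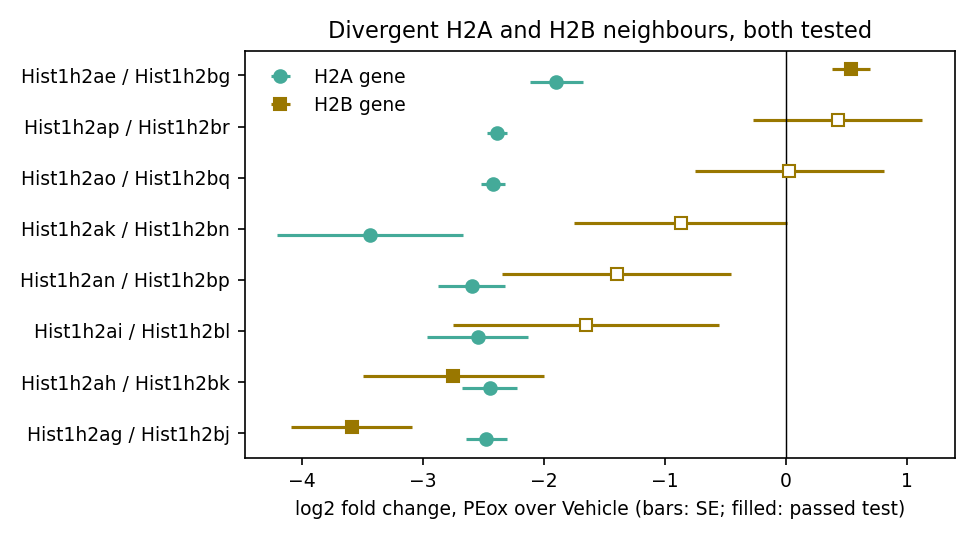
Log2 fold change of PEox over Vehicle (x axis, bars are the SE of the edgeR fit) of the H2A gene (circles) and the H2B gene (squares) of the 8 head-to-head pairs with both genes tested (y axis), filled where the gene passed the test. Every H2A gene lies below 0, while the H2B partners run from -3.59 (Hist1h2bj) to 0.54 (Hist1h2bg).

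Genes that act on histones or mark the cell cycle were read from lists of known members. The counts here and in the next paragraph stand beside 18.8% of all genes tested called lower and 18.3% higher. Of 16 tested genes for the 3′ processing and decay of histone messenger RNA, 1 was lower, 3 were higher and 12 did not pass (median log2 fold change 0.01). The part of this list called higher was near that of all genes. The gene called lower was Slbp, which went from 243, 257 and 243 CPM to 202, 190 and 191 (log2 fold change -0.35 ± 0.05 SE, edgeR adjusted p = 0.000891), a small change with no overlap. Cpsf1, a subunit of the cleavage and polyadenylation specificity factor, rose from 66.0 ± 9.22 to 163 ± 17.5 CPM (SD, n = 3; edgeR adjusted p = 7.16e-05). Cpsf2 and Cpsf3, also of that factor, did not pass. Upf1, a helicase of messenger RNA decay, rose (log2 fold change 0.74, edgeR adjusted p = 0.00364). Ncbp1, of the cap binding complex, was also called higher (0.32, edgeR adjusted p = 0.0205), a call lost without Vehicle library 1, Vehicle library 3 or PEox library 2. With library size as the scaling, 6 genes of this list were higher, and after the length and GC correction 2 were lower and 4 higher. Of 16 regulators of histone gene transcription, 7 were lower and 1 higher (median -0.19), or 2 higher under that scaling. Npat, the coactivator of the clustered genes, rose from 21.3 ± 1.05 to 36.7 ± 3.55 CPM (SD, n = 3; edgeR adjusted p = 0.000703). Ccne1, the cyclin E that acts on Npat with Cdk2, fell from 23.8 ± 5.61 to 2.91 ± 0.734 CPM (SD, n = 3; edgeR adjusted p = 4.58e-05), and E2f1, a transcription factor of S phase entry, fell (log2 fold change -2.09, edgeR adjusted p = 1.68e-05).

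Histone chaperones and nucleosome assembly factors were lower in 13 of 24 and higher in 1 (median -0.33), or higher in 2 with library size or the length and GC correction. Chaf1a, of the assembly factor CAF-1, went from 51.6 ± 2.66 to 15.9 ± 2.41 CPM, and Asf1b, a carrier of H3 and H4, from 110.4 ± 5.49 to 32.2 ± 7.78 CPM (SD, n = 3; edgeR adjusted p = 2.75e-05 and 8.6e-05). The histone variants made outside the clusters were lower in 8 of 10 and higher in none (median -0.40). H2afz, the gene of H2A.Z, went from 773 ± 8.23 to 491 ± 18.5 CPM (SD, n = 3; log2 fold change -0.66, edgeR adjusted p = 1.26e-05). This direction depended on scaling in part: with library size alone 5 of the 10 were lower and 1 higher, and after the length and GC correction 4 and 1. Of 19 S phase genes, 18 were lower and none higher (median -1.59), among them Mcm5 of the replicative helicase (-2.27) and Rrm2 of ribonucleotide reductase (-3.05). All 12 genes of G2 and mitosis were lower (median -3.14), among them the cyclins Ccnb1 (-4.29) and Ccnb2 (-4.09). The medians of H2A (-2.42) and H3 (-2.48) lay between those of the S phase and G2 lists. Those of H1 (-0.99), H2B (-0.84) and H4 (-0.87) showed less of a fall than the S phase list. Hist1h1c rose, and Hist1h2bc and Hist3h2a did not pass. Many members of a class share windows, so these medians do not rest on independent genes. Slbp stands in both the processing and the S phase list, and Cdk1 in both the transcription and the G2 list. The part of fewer dividing cells in the histone values was not tested.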

How the data were processed

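The table held raw counts per gene, deposited by the authors as whole numbers with no normalization for 55401 Ensembl identifiers and 6 libraries, of which 29431 had a count and 55141 a symbol in a reference table. Libraries were sequenced by Novogene on a NovaSeq instrument as read pairs of 150 bases, per the labels' protocols. Per the submitters' processing notes, the tools were fastp, HISAT2 2.0.5 and edgeR 3.22.5. The sources used here do not give the read counter, genome build, annotation or strand use. All sample columns were matched by title, and 0 were left unused.

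Genes were kept by edgeR 4.0.16's filterByExpr (minimum count 10) and scaled by TMM in R 4.3.3. Each gene was tested between the groups by edgeR's robust quasi-likelihood fit, with no other covariate. SEs were derived from the fold change and its F statistic. The common biological coefficient of variation was 34.5%. The chi-square per gene was 16.5 to 38.2 between libraries of a group, above sampling noise, so each was kept as 1 replicate. The procedure was also tested on simulated data. CPM uses TMM factors.

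GENCODE M21 (GRCm38) gave lengths, stem-loops, windows of 100 bases and translated sequences, which may not be the annotation the authors used. The members, lists and tests were chosen with earlier results of these data known. Of the ILC3 marker list, 1 gene is not reported here and was left out of its sum and counts. Named members were the 4 with the highest mean CPM in each class, those called higher, and the 3 with the smallest p among those called lower. Named pathway genes were the up to 4 with the smallest p in each list. Other members are named because their values were seen. Alternatives were RLE scaling, library size alone, no low count filter, at least 1 CPM in 3 libraries, DESeq2 1.42.0, limma-voom (limma 3.58.1), a replicate block, a loess correction for length and GC in each library (span 0.5), same-protein members summed, and each library left out.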

Additional observations from a re-analysis of the deposited data

How the results depend on the processing

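Of the 26 members called lower, 16 were tested and called lower under every alternative that kept single members, and of the 2 called higher, Hist1h1c was called higher throughout. DESeq2 and RLE scaling called all 26 lower again, limma-voom 23, and no filter 23. With at least 1 CPM in 3 libraries, 19 of the 26 were still tested and all 19 were called lower, which left 2 lower in H2B and 1 in H3. With the length and GC trend removed, 20 of the 26 calls were kept, H2B held 2 lower and 2 higher, and the median log2 fold change was -0.80 over members and 0.12 over all genes. With library size alone the median of all genes was 0.14, and the summed log2 ratio was 0.84 for H1, -1.62 for H2A, 0.07 for H2B (turned from -0.06) and -0.40 for all members. With same-protein members summed into 8 groups, 15 of 26 units were lower and 1 higher. Adding 3 predicted models that overlap Hist2h2aa1 and Hist2h2aa2, chosen after seeing the data, gave -1.51 for H2A. Apart from the filter and the summing, which change what is tested, the cause was not tested.

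Members that had not passed changed sign: Hist1h4j 0.02 with library size and 0.44 after the length and GC correction, Hist1h4m 0.13 with the latter, Hist1h2bq -0.26 and Hist1h3d -0.23 with limma-voom. Left out in turn, the libraries gave 20 to 25 members lower and 1 to 2 higher. H1 had 2 to 3 lower, H2A 10 to 12, H2B 3 to 4 lower and 0 to 1 higher, H3 3 to 5 and H4 2 to 3. Over all genes 2738 to 3480 were lower and 2530 to 3113 higher. Signs also turned within these ranges: Hist1h2be -0.11 to 0.35, Hist1h2bq -0.34 to 0.50, Hist1h3d -0.22 to 0.57, Hist1h4h -0.59 to 0.57, Hist1h4j -1.39 to 0.75, Hist2h2aa1 -1.05 to 2.81, Hist2h2be -0.05 to 0.46, Hist2h4 -0.26 to 0.36 and Hist4h4 -0.21 to 0.48.

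The replicate numbers share only a number: deviations of same-numbered libraries from their group means correlated at 0.00541, 0.0135 and -0.00583. With the replicate block, 22 of the 26 members called lower were kept, 1 member was higher and H2B had 0 higher (Hist1h2bg adjusted p = 0.07 by edgeR), and Hist1h2bq was at -0.13 and Hist1h3d at -0.18.

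Counts limit the low members: levels under 1 CPM rest on few reads. Of the 14 members with under 20% of windows found in no other gene, 12 were tested, so single copies are uncertain. Sums are not affected by reads placed at the wrong copy of a class. Reads left out or counted more than once would alter sums too, and the read counter is unknown.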

Other observations

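Hist2h2aa1, an H2A gene of the Hist2 cluster, was picked out after its values were seen because its libraries disagreed within each group. Its counts were 0, 533 and 73 in Vehicle and 523, 98 and 105 in PEox, in order of library number, and it did not pass (log2 fold change 0.22 ± 1.41 SE, edgeR adjusted p = 0.927). Hist2h2aa2, its near-identical copy, had no count in any library. The predicted gene Gm20634 holds 88.3% of the windows of Hist2h2aa1 and had 881, 306 and 559 counts in Vehicle and 163, 31 and 31 in PEox. Gm20633, a predicted model on the opposite strand of Hist2h2aa1, had 261, 54 and 376 counts in Vehicle and 88, 686 and 570 in PEox. Summed over these 3 models the libraries were close within a group, at 17.97, 15.7 and 16.02 CPM in Vehicle and 13.2, 13.8 and 11.7 in PEox, 1.29-fold lower. Adding these models and Gm20632, which overlaps Hist2h2aa2, took the H2A sum from 259 ± 6.20 to 91.2 ± 2.58 CPM (SD, 3 libraries each), 2.84-fold lower.

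The members outside the Hist1 cluster were mostly without counts or did not pass. Of 10 Hist2 genes, 3 had no count and 5 were tested, of which Hist2h2ac and Hist2h3c2 were lower (median 0.15 over the 5). The single Hist4 gene, Hist4h4, stood at 0.913, 1.13 and 0.493 CPM in Vehicle and 0.799, 0.660 and 1.47 in PEox, with overlap (edgeR adjusted p = 0.813). The Hist1 cluster held 23 of the 26 members called lower and both called higher. It also held 48 of the 56 members tested, so these calls do not set it apart from the other clusters. Among all genes tested 18.8% were lower and 18.3% higher.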
